A study of Mus musculus with 2 samples.

Results

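Natural killer (NK) cells were picked out of 2 single-cell libraries of the mouse central nervous system (CNS) by a gate on RNA. A kept barcode was a member when it held a UMI of 3 or more of Ncr1, Klrb1c, Gzma, Eomes, Klre1, Prf1, Klra8 and Txk, and no UMI of Cd3e, Cd8b1, Cd79a or P2ry12. A UMI is 1 counted RNA molecule. The gate held 631 of 25603 kept barcodes, 271 of 12305 in the Stat4fl/flCD11cCre library and 360 of 13298 in the WT library. The members were selected on these 12 genes, so their presence or absence describes the gate and is no finding.

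Both genotypes were C57BL/6 mice with EAE (experimental autoimmune encephalomyelitis), an inflammation of brain and spinal cord set off by autoreactive T cells and used as a model of multiple sclerosis. All mice received MOG peptide in complete Freund's adjuvant with pertussis toxin, and CNS mononuclear cells were recovered over Percoll on day 15. The cells of each genotype were pooled and sorted as MHCII+ CD11c+, and each pool gave 1 droplet library with 5 antibody tags, so the spread between mice cannot be measured. The labels name floxed Stat4 alleles (Stat4fl/fl) and CD11cCre in the Stat4fl/flCD11cCre mice. CD11c, encoded by Itgax, is found on dendritic cells, some macrophages and part of the NK cells. The labels give neither the floxed exons nor the construct that carries Cre, and they do not say whether WT mice carried either allele. No difference below has a replicate check, no test across samples was possible, and every interval is a 95% exact interval that covers counting error only.

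NK cells are innate lymphocytes that kill target cells with perforin and granzymes and secrete interferon-gamma. They do so after signals from activating receptors such as NKp46 (Ncr1) and from the cytokines IL-12, IL-15 and IL-18. IL-12 acts through STAT4. In the mouse, NK cells mature from CD27+ cells to CD27- cells that carry CD11b (Itgam) and KLRG1, while tissue-resident group 1 innate lymphoid cells (ILC1) share many NK genes and carry CD49a (Itga1).

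The Stat4fl/flCD11cCre file held 12534 barcodes and 120221740 gene UMIs, against 13820 barcodes and 122975017 gene UMIs in the WT file. Gated NK cells had a median of 5296 UMIs and 1976 genes in the Stat4fl/flCD11cCre library and 4035 UMIs and 1614 genes in the WT library. Members were thus deeper in the Stat4fl/flCD11cCre library. Where thinning is named, each cell was thinned to 2500 UMIs, which left 255 Stat4fl/flCD11cCre members and 316 WT members. Other counts of members that held a gene use all UMIs and are not matched for depth. Ribosomal protein genes took 26.1% of the members' UMIs in the Stat4fl/flCD11cCre library and 28.2% in the WT library. The 2 files shared 43 barcodes, none of them a member in both. Levels are CPM, the UMIs of a gene summed over the members of a library per 1000000 of their gene UMIs, and log2 ratios are Stat4fl/flCD11cCre over WT.

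The gate cut through a clear dip in the number of gate genes per barcode. Without an exclusion gene, 9 barcodes of the Stat4fl/flCD11cCre library and 21 of the WT library had exactly 2 gate genes, 12 and 25 had exactly 3, and the most common number was 7 in the Stat4fl/flCD11cCre library and 6 in the WT library. Barcodes just inside the threshold, with 3 gate genes, had 1381 and 1375 CPM of the granule gene Nkg7 in the Stat4fl/flCD11cCre and WT libraries. Barcodes just outside, with 2, had 153 and 560 CPM of Nkg7 in the Stat4fl/flCD11cCre and WT libraries. They also had 8241 and 6786 CPM of the myeloid lysozyme gene Lyz2, of which barcodes just inside had 116 and 99.0 CPM in the Stat4fl/flCD11cCre and WT libraries. Barcodes just outside thus had much more myeloid RNA in both libraries, but those of the WT library also had NK and T cell RNA. The chemokine gene Ccl5 had 2982 CPM just outside and 4566 CPM just inside in the WT library, and 449 and 9740 CPM in the Stat4fl/flCD11cCre library. Klrd1 had 371 and 1056 CPM in the WT library. These are sums over few barcodes, so single barcodes can set them.

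The exclusion genes removed many barcodes. Of the barcodes with 3 or more gate genes, 190 of 461 (41.2%) in the Stat4fl/flCD11cCre library and 294 of 654 (45.0%) in the WT library held a UMI of Cd3e, Cd8b1, Cd79a or P2ry12. Most of these held the T cell receptor subunit Cd3e, 130 in the Stat4fl/flCD11cCre library and 233 in the WT library. P2ry12, a microglial receptor, was the only reason for removal of 54 Stat4fl/flCD11cCre and 50 WT barcodes.

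**Figure D1:**
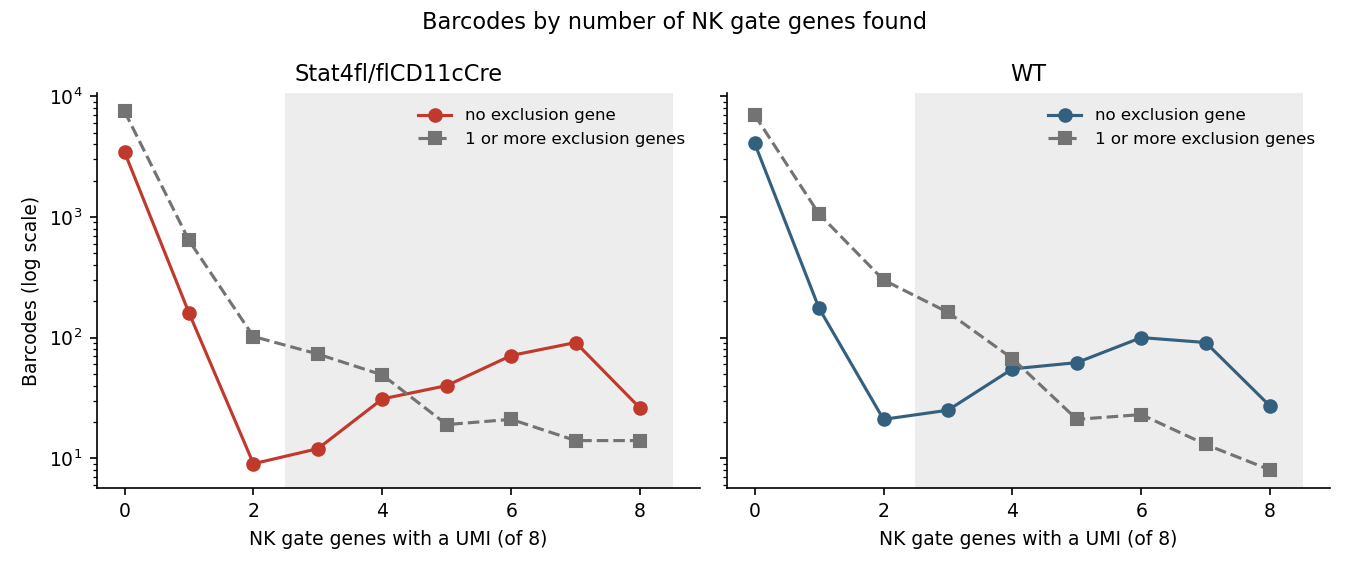
Number of kept barcodes (log scale) by how many of the 8 NK gate genes had a UMI, in the Stat4fl/flCD11cCre library (left) and the WT library (right). Coloured circles are barcodes without an exclusion gene, grey squares barcodes with 1 or more, and the shaded range is the gate, where the coloured curve climbs again from 9 and 21 barcodes at 2 genes.

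NK genes that the gate did not use were present in members of both libraries. Nkg7 was found in 269 of 271 members of the Stat4fl/flCD11cCre library at 2382 CPM, and in 356 of 360 members of the WT library at 1963 CPM. Klrd1 (CD94), the partner chain of the NKG2 receptors, had 883 CPM in Stat4fl/flCD11cCre members and 865 CPM in WT members. In CD8 T cells (barcodes with Cd3e and Cd8b1) it had 301 CPM in the Stat4fl/flCD11cCre library and 264 CPM in the WT library. Klrk1 (NKG2D), an activating receptor for stress ligands, had 630 CPM in Stat4fl/flCD11cCre members and 627 CPM in WT members, and 8.44 and 11.8 CPM in Stat4fl/flCD11cCre and WT microglia (barcodes with P2ry12 and Tmem119). Tyrobp and Fcer1g, adaptors of NK and myeloid receptors, had 2256 and 2060 CPM in Stat4fl/flCD11cCre members and 2054 and 1823 CPM in WT members, near the level of each in microglia and far above the 272 and 229 CPM of Stat4fl/flCD11cCre CD8 T cells. By these 5 genes the gated barcodes fit the label of NK cells in both libraries, but ILC1 share many NK genes and were not told apart. Nkg7 was set against no other gate here, and Klrk1 against microglia only.

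Markers of other cells were low but not absent. Cd8a had 0 and 1 UMIs and Cd4 4 and 1 UMIs over all Stat4fl/flCD11cCre and WT members, and the 6 B cell genes summed to 7 and 11 UMIs. Transcripts of the T cell receptor beta constant genes, which NK cells are known to make without a functional receptor, were present: Trbc1 had 349 CPM in Stat4fl/flCD11cCre members and 343 CPM in WT members. Trac, the alpha chain constant gene, had 13.7 CPM in Stat4fl/flCD11cCre members and 16.0 CPM in WT members. The CD3 subunits Cd3d and Cd3g were found in 39 and 39 Stat4fl/flCD11cCre members and in 28 and 29 WT members, at 71.1 and 66.2 CPM against 41.9 and 40.8 CPM, where CD8 T cells had 1104 and 1163 CPM of Cd3d. Without every member that held Cd3d, Cd3g, Cd4, Cd8a or Trac, 192 Stat4fl/flCD11cCre and 298 WT members were left.

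Much of the myeloid RNA lay in few members, but some was found in many. The 11 macrophage genes summed to 3636 UMIs in Stat4fl/flCD11cCre members and 5113 in WT members, of which 3 members a library held 2639 and 2579. At least 1 UMI of these genes was found in 173 Stat4fl/flCD11cCre members and 255 WT members. The 6 neutrophil genes summed to 2210 UMIs in Stat4fl/flCD11cCre members, of which 3 members held 2034, and to 8351 UMIs in WT members, of which 3 held 7956. The ILC3 genes Il22 and Il17a and the ILC2 genes Il13 and Il5 had no UMI in any member. In all, 92 Stat4fl/flCD11cCre members and 126 WT members held 3 or more myeloid marker genes, and results that turn on them are given with and without these members. Leaving out the 10% of kept barcodes with the highest doublet scores removed 8 Stat4fl/flCD11cCre members and 15 WT members. The part of free RNA was not tested.

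Stat4 RNA (ENSMUSG00000062939) was present in gated NK cells of both libraries at close levels. It had 361 CPM in the Stat4fl/flCD11cCre library and 399 CPM in the WT library, a log2 ratio of -0.15 (-0.30 to 0.01). After thinning it was found in 53.3% of Stat4fl/flCD11cCre members and 57.3% of WT members. Among microglia, whose median depth was 5976 UMIs in the Stat4fl/flCD11cCre library and 7075 in the WT library, it was found in 0.93% and 1.54%. CD8 T cells had 213 CPM of Stat4 in the Stat4fl/flCD11cCre library and 236 CPM in the WT library (-0.15, -0.31 to 0.02). CD4 T cells had 217 CPM against 227 CPM in WT (-0.07, -0.18 to 0.04) and microglia 9.61 CPM against 10.8 CPM in WT (-0.17, -0.34 to 0.01). The interval held 0 in all 4 gates. Without members that held 3 or more myeloid markers, the log2 ratio of Stat4 in NK cells was -0.37. The 3' counts do not show which exons a transcript kept, so a Stat4 level outside the deleted part checks nothing about deletion.

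Across all genes, gated NK cells of the 2 genotypes were close. Of 7161 genes with 50 or more UMIs over the members of both libraries, 301 were 1.5-fold or more higher in the Stat4fl/flCD11cCre library (4.2%) and 237 were 1.5-fold or more lower (3.31%), and the median log2 ratio was 0.05. Of these, 186 higher and 170 lower genes also passed the fold when the 1 or 3 members with the most UMIs of the gene were left out of each library and when each cell was weighted equally. These shares are the background against which the counts of the gene lists below are read.

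Receptor and signalling genes of the IL-12, IL-18 and IL-15 pathways had much the same level in both libraries. Of 17 genes compared, none was past the fold upwards and 2 were past it downwards, with a median log2 ratio of 0.04. Il12rb2, the signalling chain of the IL-12 receptor, had 196 CPM in Stat4fl/flCD11cCre members and 212 CPM in WT members, a log2 ratio of -0.11 (-0.32 to 0.09). CD8 T cells had 47.5 CPM of Il12rb2 in the Stat4fl/flCD11cCre library and 64.2 CPM in the WT library, so it was higher in NK cells in both libraries. Il12rb1, the chain shared by the IL-12 and IL-23 receptors, had 14 UMIs in Stat4fl/flCD11cCre members and 28 UMIs in WT members, too few for a comparison.

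The IL-18 receptor chains went in opposite directions by small amounts: Il18r1 had 199.6 CPM in Stat4fl/flCD11cCre members and 236 CPM in WT members (log2 ratio -0.24, -0.44 to -0.04) and its partner Il18rap 238 CPM against 203 CPM in WT (0.24, 0.04 to 0.44). Il2rb, the beta chain that NK cells use for IL-15 and IL-2, had 671 CPM in Stat4fl/flCD11cCre members and 604 CPM in WT members. The 2 lower genes were Il2ra (CD25), with 21 UMIs in Stat4fl/flCD11cCre members and 47 UMIs in WT members, and the kinase Jak3, with 22 UMIs against 38 UMIs in WT. Both rested on few molecules. Il2ra was higher, by 0.45 on the log2 scale, when the gate was applied to thinned cells, and Jak3 was at -0.32 when P2ry12 was not used for exclusion. Ifng, which IL-12 induces through STAT4, had 95.7 CPM in Stat4fl/flCD11cCre members and 83.2 CPM in WT members (0.20, -0.11 to 0.52), found in 64 and 84 members. Tbx21 (T-bet), a transcription factor of NK maturation and of Ifng, had 145 CPM in Stat4fl/flCD11cCre members and 124 CPM in WT members (0.22, -0.03 to 0.48).

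The largest ratios that were spread over many members lay in few genes. Itgad (CD11d), an integrin alpha chain of myeloid cells, had 162 UMIs in 91 Stat4fl/flCD11cCre members and 11 UMIs in 10 WT members, a log2 ratio of 3.96 (3.08 to 4.99). Cox6a2, a subunit of cytochrome c oxidase known from heart and muscle and from plasmacytoid dendritic cells, had 247 UMIs in 43 Stat4fl/flCD11cCre members and 24 UMIs in 11 WT members (3.45, 2.84 to 4.11). Plcb4 (ENSMUSG00000039943), a phospholipase C, had 133 CPM in Stat4fl/flCD11cCre members and 20.2 CPM in WT members (2.73, 2.24 to 3.25) and was found in 129 and 32 of them. Wdfy1 (ENSMUSG00000073643), an adaptor of Toll-like receptor signalling, had 67.3 CPM in Stat4fl/flCD11cCre members and 21.2 CPM in WT members (1.67, 1.15 to 2.21) and was found in 92 and 37 of them. All 4 stayed past the fold under each of the 13 alternatives computed for single genes.

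Lower genes spread over many members included Agpat5, Nampt, Dscam, Tnfrsf9 and Hspa1b. Agpat5, an enzyme of phospholipid synthesis, had 23.5 CPM in Stat4fl/flCD11cCre members and 56.3 CPM in WT members, and Nampt, an enzyme of NAD synthesis, 23.5 CPM against 50.1 CPM in WT. Dscam, a cell adhesion molecule known from neurons, had 44.3 CPM, found in 28 Stat4fl/flCD11cCre members, against 95.6 CPM, found in 51 WT members, and at most 4.08 CPM in the other 3 gates of either library. Tnfrsf9 (4-1BB), a costimulatory receptor of activated lymphocytes, had 72.2 CPM in Stat4fl/flCD11cCre members and 126 CPM in WT members, and Hspa1b, an inducible heat shock chaperone, 96.3 CPM against 188 CPM in WT. The shift of Tnfrsf9 fell inside the fold, at -0.56, when P2ry12 was not used for exclusion.

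Several of these shifts were shared by the other gates of the same libraries. Plcb4 had log2 ratios of 2.38 in CD8 T cells, 0.86 in CD4 T cells and 2.19 in microglia. In the same order, Wdfy1 had 1.57, 1.30 and 0.76. Tnfrsf9 had -1.24, -0.99 and -0.60. Agpat5, in contrast, had -0.07, 0.15 and -0.18, so its ratio of -1.26 in NK cells was not seen in the other 3 gates. The difference between gates was not tested, since each genotype had 1 library.

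**Figure D2:**
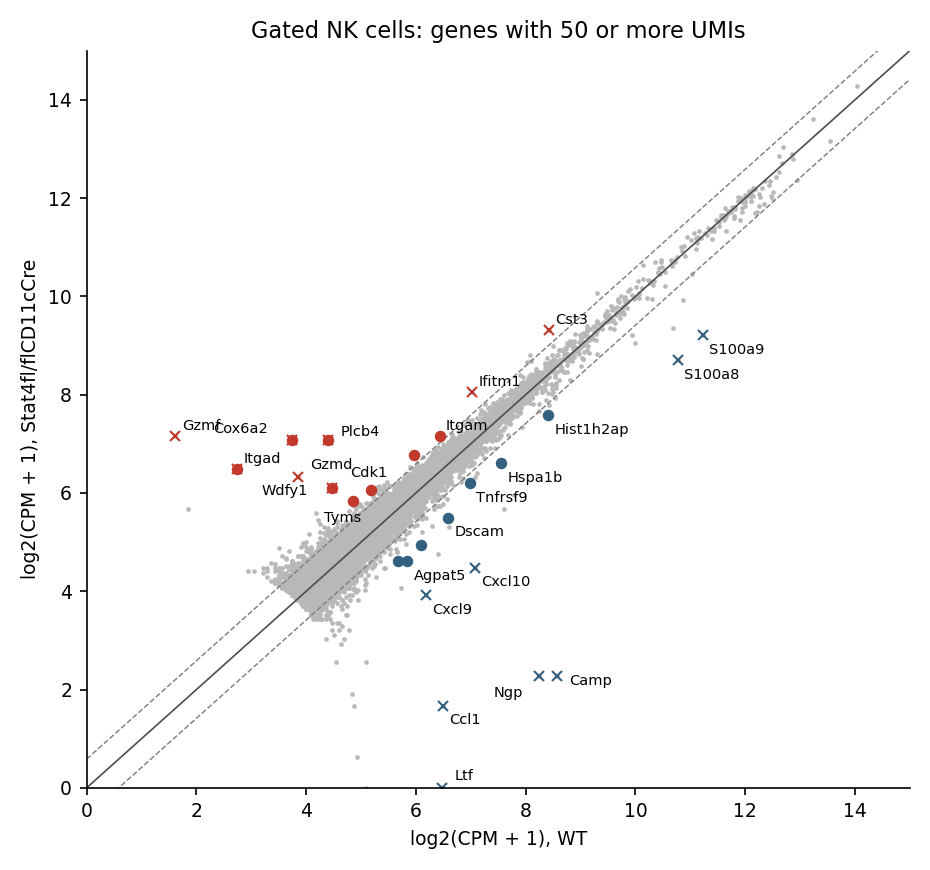
Level of each of the 7161 genes compared in gated NK cells, as log2(CPM + 1), in the Stat4fl/flCD11cCre library (vertical) against the WT library (horizontal). Solid line, equal levels, and dashed lines, 1.5-fold; red and blue mark named genes that were higher and lower, circles for genes spread over members and crosses for the others, and most genes lie between the dashed lines.

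Other extreme ratios came from single members. The granzymes Gzmf and Gzmd had 259 and 144 UMIs in the Stat4fl/flCD11cCre library, all in 1 and the same member, against 4 and 26 UMIs in the WT library. Their sequences are close to those of other granzymes, so the split of reads among them is uncertain. The neutrophil granule genes Camp, Ngp and Ltf had 7, 7 and 0 UMIs in Stat4fl/flCD11cCre members and 731, 588 and 171 UMIs in WT members. A single WT member with 21111 UMIs held 722, 583 and 170 of these, and also 2623 of 3400 UMIs of S100a8 and 3750 of 4625 UMIs of S100a9. The chemokine gene Ccl1 had 4 UMIs in Stat4fl/flCD11cCre members and 172 UMIs in WT members, 170 of the WT UMIs in 1 member. These ratios describe single barcodes and not the populations.

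Ifitm1, an interferon-induced membrane protein, had 264 CPM, found in 17 Stat4fl/flCD11cCre members, against 129 CPM, found in 30 WT members, and its log2 ratio of 1.03 turned to -0.84 without members that held 3 or more myeloid markers. Cst3, which encodes cystatin C and is abundant in myeloid cells and microglia, had 634 CPM in Stat4fl/flCD11cCre members and 344 CPM in WT members and a log2 ratio of 0.88, which turned to -0.14 when the gate was applied to thinned cells.

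Itgam, Itgad and Cox6a2, all higher in the Stat4fl/flCD11cCre library, lie side by side around Itgax, whose protein CD11c was used for the sort. On chromosome 7 (GRCm38, GENCODE annotation), Itgam spans 128062640 to 128118491, Itgax 128129547 to 128150657 and Itgad 128154376 to 128223816, all on the plus strand, and Cox6a2 spans 128205435 to 128206387 on the minus strand, within the span of Itgad. Of 14 protein-coding genes within 200 kb of Itgax, 6 had enough UMIs over both libraries. Of these 6, Itgam, Itgad and Cox6a2 were 1.5-fold or more higher and none was lower. Among the others, the log2 ratio was 0.30 for the inflammasome adaptor gene Pycard and 0.13 for Itgax. Itgad and Cox6a2 had 162 and 247 UMIs in Stat4fl/flCD11cCre members but 11 and 24 in WT members. They thus had enough UMIs only through the library where they were high, and they were already named for their ratios. The count therefore cannot test whether higher genes gather at this locus. Itgal (CD11a), an integrin alpha chain of leukocytes farther away on the same chromosome (127296260 to 127335138), had 233 CPM in Stat4fl/flCD11cCre members and 227 CPM in WT members. The counting of reads by strand is not given in the sources used here, so reads of Cox6a2 and of the Itgad intron around it may not be fully told apart.

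Itgad and Cox6a2 were not found in the same members more often than their shares give. In the Stat4fl/flCD11cCre library 14 members held both, where the product of their shares gives 14.4, and 48 held Itgad with Itgam, where the product gives 43.3. Where Cox6a2 was found, a Stat4fl/flCD11cCre member had a median of 4 UMIs and a WT member 1, whereas Itgad had a median of 1 in both libraries. Siglech, which marks plasmacytoid dendritic cells, was found in 9 Stat4fl/flCD11cCre and 6 WT members, 2 of them with Cox6a2 in each library. The product of the shares gives 1.43 for the Stat4fl/flCD11cCre library and 0.183 for the WT library, so these counts rest on few members.

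The 4 genes had different patterns across the gates. Itgad was found in 18.0% of thinned Stat4fl/flCD11cCre NK cells and 1.58% of thinned WT NK cells, and in 0.795% and 0.711% of thinned microglia. Its log2 ratio was 2.22 in CD8 T cells (17.0 CPM against 3.65 CPM in WT), 2.07 in CD4 T cells (2.65 CPM against 0.633 CPM in WT) and 0.39 in microglia (3.60 CPM against 2.74 CPM in WT). Cox6a2 was also higher in CD8 T cells (100.2 CPM against 28.1 CPM in WT) and CD4 T cells (27.1 CPM against 4.81 CPM in WT) of the Stat4fl/flCD11cCre library, but lower in its microglia (33.9 CPM against 48.8 CPM in WT). Itgam was higher in NK cells of the Stat4fl/flCD11cCre library, at 142 CPM against 85.3 CPM in WT, and lower in its CD8 T cells, at 31.5 CPM against 42.3 CPM in WT, and CD4 T cells, at 32.7 CPM against 41.9 CPM in WT. Itgax was close in NK cells, at 78.2 CPM in the Stat4fl/flCD11cCre library against 71.3 CPM in WT, and lower in Stat4fl/flCD11cCre microglia, at 21.3 CPM against 32.4 CPM in WT. Whether the Cre construct has a part in the levels of these neighbouring genes was not tested.

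**Figure D3:**
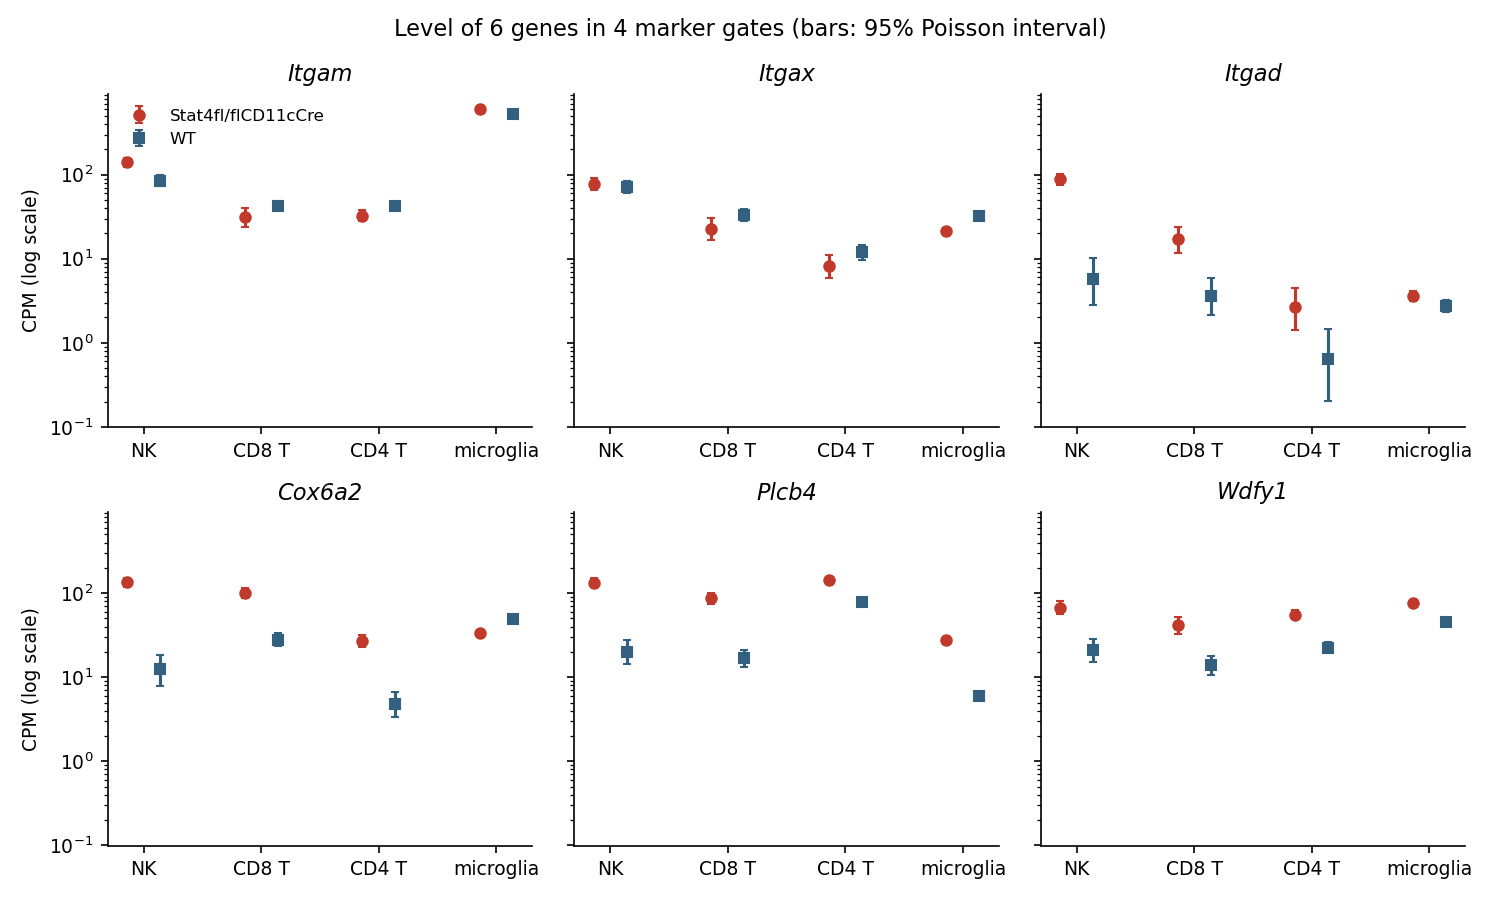
CPM (log scale, with 95% Poisson intervals that cover counting error only) of Itgam, Itgax, Itgad, Cox6a2, Plcb4 and Wdfy1 in gated NK cells, CD8 T cells, CD4 T cells and microglia of the Stat4fl/flCD11cCre library (red circles, left of each pair) and the WT library (blue squares, right). Itgad stands at 88.6 and 5.68 CPM in NK cells, while Plcb4 and Wdfy1 are higher in the Stat4fl/flCD11cCre library in all 4 gates.

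The start regions of Itgam and Itgax are shown because these neighbours encode the CD11b and CD11c chains, 1 of them read out by an antibody tag and the other used for the sort, and because the RNA of Itgam differed between the libraries by more than that of Itgax. Each window runs from 250 bases before to 50 bases after the RefSeq start (build GRCm38.p6), Itgam at chr7:128062390-128062689 and Itgax at chr7:128129300-128129599, both on the plus strand. Capitals mark GAGGAA, a core bound by ETS family factors such as PU.1, and TGACTCA, the AP-1 core, each searched on both strands.
Itgam: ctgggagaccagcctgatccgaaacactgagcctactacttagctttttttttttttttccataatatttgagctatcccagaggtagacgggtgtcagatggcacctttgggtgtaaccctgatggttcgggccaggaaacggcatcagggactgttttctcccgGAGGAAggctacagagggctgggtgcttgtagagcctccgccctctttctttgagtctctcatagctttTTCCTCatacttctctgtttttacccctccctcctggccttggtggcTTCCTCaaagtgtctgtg
Itgax: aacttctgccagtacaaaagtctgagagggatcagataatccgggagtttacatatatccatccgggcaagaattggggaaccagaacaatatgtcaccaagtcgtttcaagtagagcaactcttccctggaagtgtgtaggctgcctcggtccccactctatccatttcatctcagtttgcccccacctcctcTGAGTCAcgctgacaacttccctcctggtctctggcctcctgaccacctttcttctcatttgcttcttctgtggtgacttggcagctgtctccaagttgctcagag
The Itgam window held 3 GAGGAA matches and no TGACTCA, and the Itgax window 1 TGACTCA and no GAGGAA. Of 32851 such RefSeq windows of the mouse, 28.3% held GAGGAA and 5.20% held TGACTCA, and the motifs share no overlapping letters here. Itgad and Cox6a2 are named only.

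Late-stage genes tended to be higher in NK cells of the Stat4fl/flCD11cCre library and early-stage genes were close to equal. Of 10 late-stage genes compared, 2 were past the fold upwards and none downwards, 8 lay above 0, beside 4109 of 7161 over all genes, and the median log2 ratio was 0.30, beside 0.05 over all genes. Itgam had the largest ratio, 0.73 (0.45 to 1.02), and was found in 129 of 271 Stat4fl/flCD11cCre members and 91 of 360 WT members, or in 29.4% and 14.9% of them after thinning. S1pr5, the sphingosine-1-phosphate receptor that lets mature NK cells leave marrow and lymph node, had 33.4 CPM in Stat4fl/flCD11cCre members and 20.7 CPM in WT members (0.69, 0.09 to 1.30). Both calls depended on the gate: Itgam had a log2 ratio of 0.34 when P2ry12 was not used for exclusion, and S1pr5 0.52 when members with further T cell genes were left out.

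Other late-stage genes lay inside the fold. Cma1, a chymase of mature mouse NK cells, had 112 CPM in Stat4fl/flCD11cCre members and 78.0 CPM in WT members (0.52, 0.21 to 0.83), Cx3cr1, the fractalkine receptor, 82.0 CPM against 59.9 CPM in WT (0.45, 0.09 to 0.81) and Klrg1 97.4 CPM against 82.2 CPM in WT (0.24, -0.07 to 0.56). Zeb2, a transcription factor needed for terminal maturation, had 272 CPM in Stat4fl/flCD11cCre members and 280 CPM in WT members (-0.04, -0.22 to 0.14). Ly6c2 went the other way, with 203 CPM in Stat4fl/flCD11cCre members and 302 CPM in WT members (-0.58, -0.77 to -0.39), and had a log2 ratio of 0.03 without members that held 3 or more myeloid markers. Monocytes also express Ly6c2.

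None of the 11 early-stage genes passed the fold in either direction, near the 4.2% upwards and 3.31% downwards of all genes. Their median log2 ratio was -0.09. Cd27, a costimulatory receptor, had 67.8 CPM in Stat4fl/flCD11cCre members and 70.3 CPM in WT members and Tcf7 (TCF-1) 94.1 CPM against 92.0 CPM in WT. Ltb (lymphotoxin beta) was the lowest, with 223 CPM in Stat4fl/flCD11cCre members and 304 CPM in WT members (-0.45, -0.63 to -0.26). Xcl1, a chemokine that attracts cDC1, had 707 CPM in Stat4fl/flCD11cCre members and 793 CPM in WT members, and Cd7 was the highest, with 412 CPM against 353 CPM in WT.

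**Figure D4:**
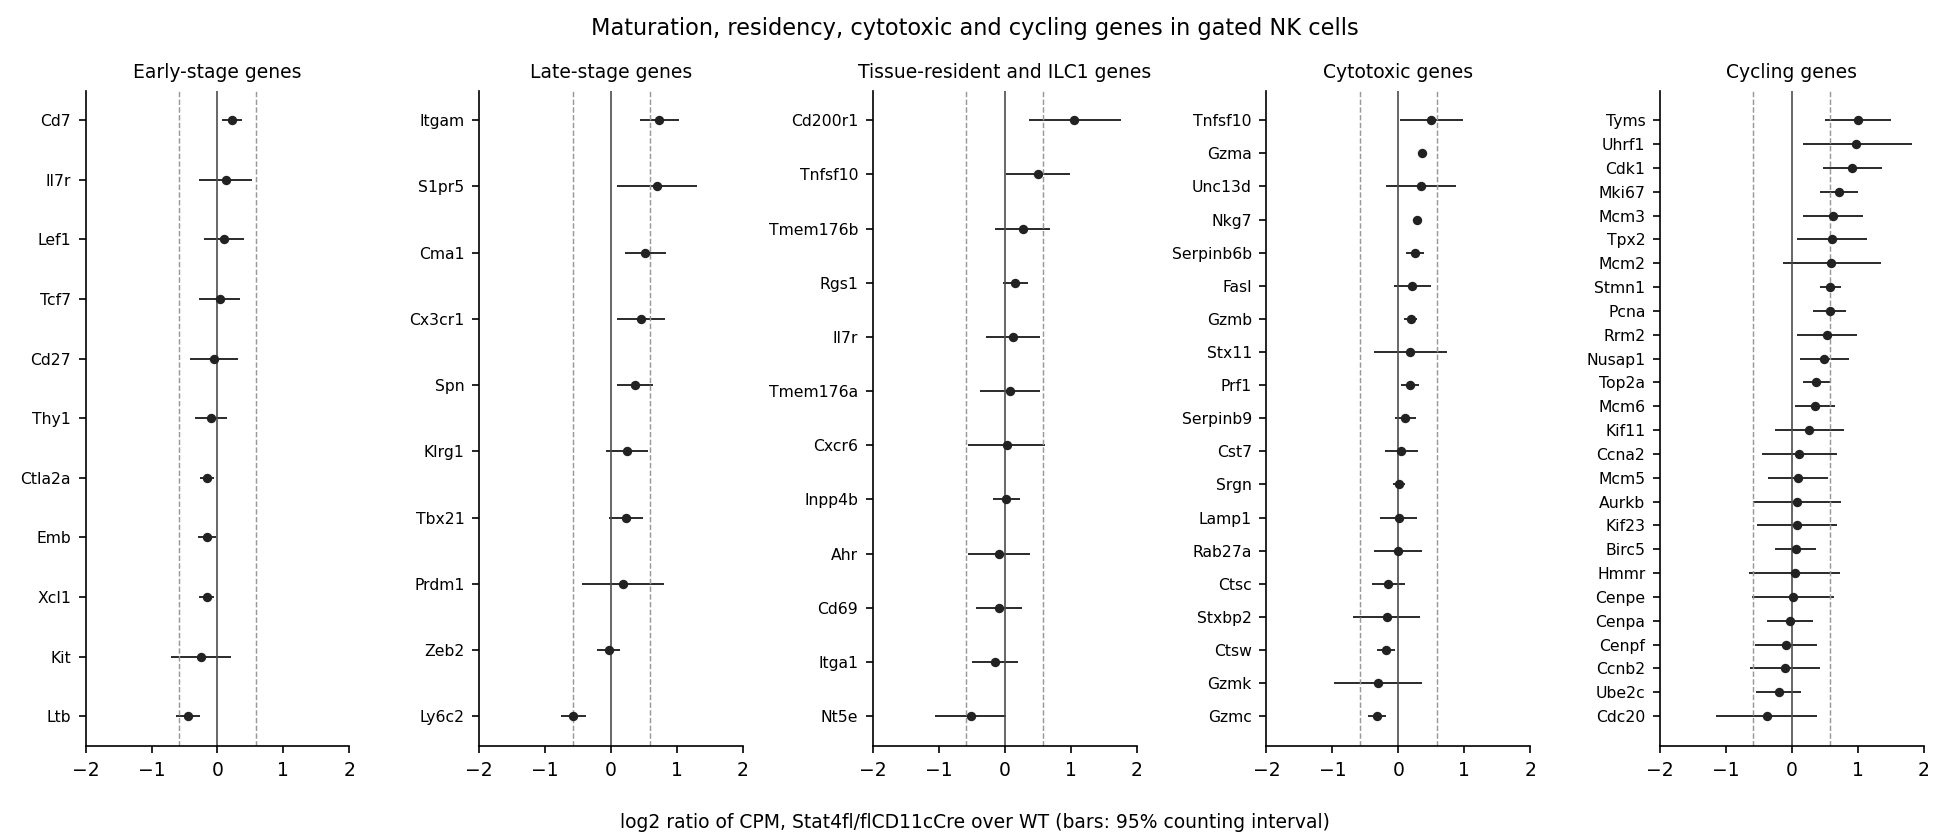
Log2 ratio of CPM, Stat4fl/flCD11cCre over WT, of each gene compared in the lists of early-stage, late-stage, tissue-resident and ILC1, cytotoxic and cycling genes in gated NK cells, with 95% exact intervals that cover counting error only. Dashed lines mark 1.5-fold; Itgam and S1pr5 pass it among late-stage genes, Cd200r1 among resident genes and 7 genes among cycling genes.

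Individual members could be placed by the stage RNA they held. Counting all UMIs, 127 Stat4fl/flCD11cCre members (46.9%) and 98 WT members (27.2%) held Klrg1 or Itgam without Cd27, here called the late class. The early class, Cd27 without Klrg1 or Itgam, held 55 Stat4fl/flCD11cCre members (20.3%) and 68 WT members (18.9%). RNA of both kinds was held by 25 Stat4fl/flCD11cCre and 26 WT members, and none by 64 and 168. After thinning, the late class took 36.1% of Stat4fl/flCD11cCre members and 20.9% of WT members, a ratio of 1.73 (1.25 to 2.41), and the early class 13.3% and 15.5%, a ratio of 0.860 (0.538 to 1.36). The larger late class came mostly with Itgam: with Klrg1 alone, thinned shares were 18.4% of Stat4fl/flCD11cCre and 12.7% of WT members, a ratio of 1.46 (0.935 to 2.28).

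Genes past the fold between the classes were counted where both libraries passed it in the same direction. Of 5604 genes with enough UMIs in both libraries, 396 (7.07%) were 1.5-fold or more higher in the late class in both libraries and 115 (2.05%) were lower in both. Among late-stage genes other than those that define the class, 7 of 8 were higher in both, and among early-stage genes 6 of 10 were lower in both. Zeb2 had log2 ratios, late over early class, of 2.61 and 2.16 in the Stat4fl/flCD11cCre and WT libraries, Cx3cr1 3.15 and 2.99, Ly6c2 3.63 and 3.15 and S1pr5 4.35 and 2.91. Cma1 had 180 UMIs in the late class and none in the early class of the Stat4fl/flCD11cCre library, and a log2 ratio of 3.92 in the WT library. In the Stat4fl/flCD11cCre and WT libraries Tcf7 had -1.87 and -1.37, Ltb -2.13 and -1.02, Ctla2a -1.36 and -1.03 and Il7r, the IL-7 receptor, -1.26 and -1.13.

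Of 19 cytotoxic genes, 4 were higher in the late class in both libraries and none lower, and of 16 trafficking genes 5 were higher and 1 lower. Gzma and Prf1 (perforin) are among the 4 but were used for the gate, so their values are given as a description. Late over early class, Gzma had log2 ratios of 1.46 and 1.78 in the Stat4fl/flCD11cCre and WT libraries, and Prf1 2.05 and 1.27. Gzmb, Fasl and Gzmc did not pass the fold in the same direction in both. In the Stat4fl/flCD11cCre and WT libraries Gzmb had 0.97 and -0.06, Fasl 0.31 and -0.29, and Gzmc, found in few members, 5.74 and -1.59. Without members that held 3 or more myeloid markers, Gzmb passed it in both, at 0.998 and 0.647. In that setting 6 of 14 cytotoxic genes were higher in both, beside 5.30% of all genes. With Klrg1 alone as the late marker Gzmb had 1.27 and 0.26. With all members and both late markers, Klf2, which controls S1P receptors, had 1.69 and 1.57 in the same 2 libraries. The integrin Itgb2 had 1.05 and 1.24 and the integrin Itga4 1.14 and 0.92. Cxcr3, a receptor for interferon-induced chemokines, went the other way, with -1.85 in the Stat4fl/flCD11cCre library and -1.46 in the WT library, as did Xcl1 with -1.09 and -1.89. Il12rb2 was higher in the late class, by 0.76 in the Stat4fl/flCD11cCre library and 0.71 in the WT library, while Stat4 had -0.73 and -0.54. Cd3d, with -2.93 in the Stat4fl/flCD11cCre library and -1.55 in the WT library, and Cd3g, with -2.48 and -3.72, were higher in the early class. Without members that held further T cell genes, 6 of 8 late-stage genes were still higher and 5 of 9 early-stage genes still lower in both libraries.

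The CD11b antibody tag gave the protein side of this order. Its median was 39 UMIs per member in the Stat4fl/flCD11cCre library (36 to 44) and 47.5 in the WT library (41 to 53), a ratio of 0.821, whereas Itgam RNA was higher in the Stat4fl/flCD11cCre library. The tag was also lower there in CD8 T cells, at 23 against 31 in WT, in CD4 T cells, at 25 against 35 in WT, and in microglia, at 430 against 506 in WT. Set against the median of its own CD4 T cells, the tag of the members stood at 1.56 in the Stat4fl/flCD11cCre library and 1.36 in the WT library. Without members that held 3 or more myeloid markers, the medians were 40 in the Stat4fl/flCD11cCre library and 38 in the WT library. The order of the libraries by this tag therefore depended on the background it was set against and on a minority of members.

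Within each library the tag followed the stage RNA. Its median was 23 UMIs in the early class and 68 in the late class of the Stat4fl/flCD11cCre library, and 35.5 and 80 in the WT library. Relative to the CD4 T cells of the same library, late-class members stood at 2.72 and 2.29 and early-class members at 0.920 and 1.01 in the Stat4fl/flCD11cCre and WT libraries. Because Itgam RNA helps define the late class, the split was repeated with Klrg1 alone: the medians were 25 for Cd27 and 70 for Klrg1 in the Stat4fl/flCD11cCre library, and 40 and 91 in the WT library. The other 4 tags, CD172a, MERTK, XCR1 and CD317, had higher medians in NK cells of the Stat4fl/flCD11cCre library, by factors of 2.42, 2.5, 2.4 and 1.70, but also in its CD4 T cells, by 2.30, 2.62, 2.17 and 1.64.

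**Figure D5:**
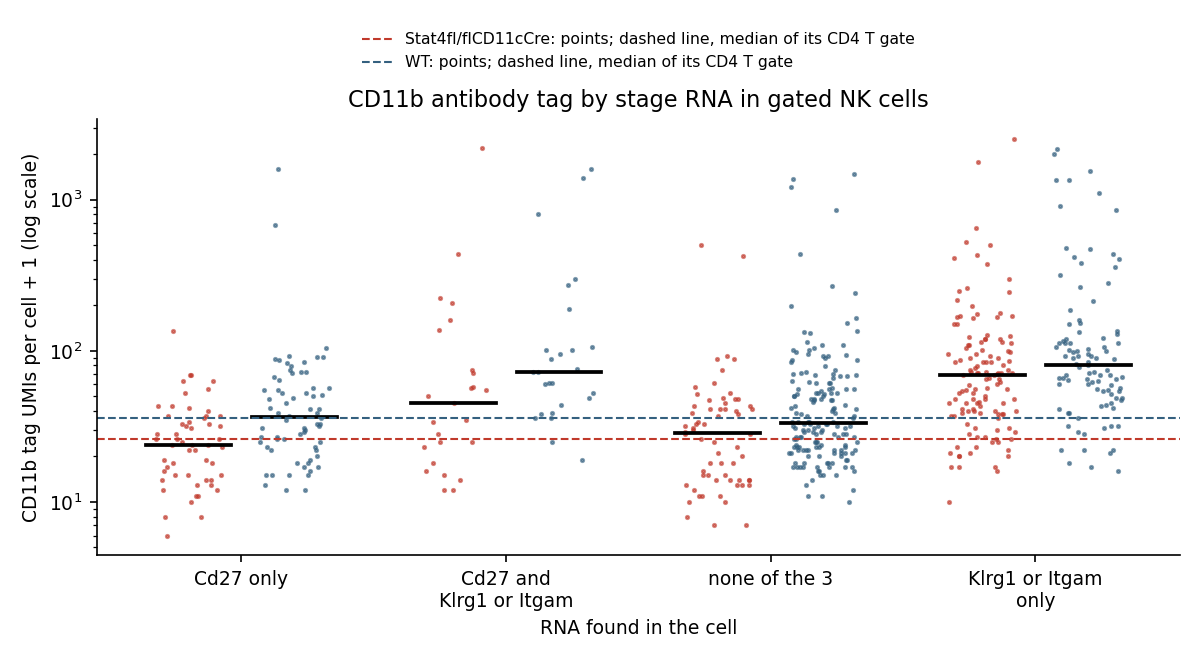
CD11b antibody-tag UMIs per cell plus 1 (log scale) of each gated NK cell by the stage RNA found in it, Stat4fl/flCD11cCre members in red at the left of each pair and WT members in blue at the right. Black bars are medians and dashed lines the median of CD4 T cells of the same library; members with Klrg1 or Itgam alone have medians of 68 and 80 UMIs, against 23 and 35.5 with Cd27 alone.

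Whether Itgad followed the stage depended on how the late class was drawn. In the Stat4fl/flCD11cCre library it had 95.9 CPM in the late class and 46.6 CPM in the early class when Itgam helped define the late class. When Klrg1 alone defined it, Itgad had 71.2 CPM in members with Klrg1 and 80.2 CPM in members with Cd27. Stat4fl/flCD11cCre members with none of the stage RNAs had 97.5 CPM by the wider definition and 109 CPM by the narrower. Plcb4 in the same library was near equal under both, at 158 CPM in the late class and 128 CPM in the early class, and at 157 CPM in members with Klrg1 and 147 CPM in members with Cd27.

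Tissue-resident and ILC1 genes were close to equal in the 2 libraries. Of 12 compared, 1 was past the fold upwards and none downwards, and the median log2 ratio was 0.05, as over all genes. Itga1 (CD49a), the surface marker of ILC1 and resident NK cells, had 71.6 CPM in Stat4fl/flCD11cCre members and 79.1 CPM in WT members and was found in 68 of 271 and 80 of 360. Cxcr6, a homing receptor of resident lymphocytes, had 28.4 CPM in Stat4fl/flCD11cCre members and 27.9 CPM in WT members, Cd69, which holds cells in tissue, 71.1 CPM against 75.5 CPM in WT, and Rgs1 272 CPM against 243 CPM in WT. Zfp683 (Hobit) had 4 UMIs in Stat4fl/flCD11cCre members and 2 UMIs in WT members, so it was barely detectable at this depth. The gene past the fold was Cd200r1, an inhibitory receptor known from ILC1, with 55 UMIs in 25 Stat4fl/flCD11cCre members and 28 UMIs in 19 WT members, a log2 ratio of 1.06 (0.37 to 1.77), which was 0.13 when the gate was applied to thinned cells.

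Resident genes were compared between the late and early classes in the same way. Late over early class, Itga1 had log2 ratios of 0.23 and -0.09 in the Stat4fl/flCD11cCre and WT libraries. Of 10 such genes none was higher in the late class in both libraries, where 7.07% of all genes were, so the absence is near that share. Il7r and Nt5e (CD73) were the 2 that were lower in both, where 2.05% of all genes were. Without members that held further T cell genes 5 of 10 were lower in both, beside 2.26% of all genes. Without members that held 3 or more myeloid markers 3 of 4 were, beside 2.45% of all genes. With Klrg1 alone as the late marker 3 of 8 were, beside 3.65% of all genes.

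Cytotoxic genes were also close. None of 19 passed the fold, near the 4.2% upwards and 3.31% downwards of all genes, and their median log2 ratio was 0.11. Gzmb had 947 CPM in Stat4fl/flCD11cCre members and 830 CPM in WT members (0.19, 0.09 to 0.29), and Fasl, the death ligand, 123 CPM against 106 CPM in WT. Among the gate genes, given here as a description, Gzma had 8449 CPM in Stat4fl/flCD11cCre members and 6618 CPM in WT members, Prf1 512 CPM against 452 CPM in WT, Ncr1 578 CPM against 514 CPM in WT and Klrb1c (NK1.1) 617 CPM against 623 CPM in WT. Gzmc had 425 CPM in Stat4fl/flCD11cCre members and 530 CPM in WT members but was found in only 26 and 30 of them. Of 14 NK genes outside the gate, 1 was past the fold upwards and none downwards, where 4.2% and 3.31% of all genes were. It was the granzyme inhibitor family gene Serpinb9b, with 67.8 CPM in Stat4fl/flCD11cCre members and 39.3 CPM in WT members (0.79, 0.36 to 1.22). Of the 14 genes, 13 lay above 0, beside 4109 of 7161 over all genes. Serpinb9b was at 0.46 when the gate was applied to thinned cells. The chemokine Ccl5 was among them with 12539 CPM in Stat4fl/flCD11cCre members and 9619 CPM in WT members (0.38, 0.35 to 0.41).

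Ly49 receptors, lectin-like receptors for MHC class I that are switched on in a varied way from cell to cell, split into higher and lower members. Klra5 had 45.4 CPM in Stat4fl/flCD11cCre members and 28.9 CPM in WT members (0.65, 0.14 to 1.17) and Klra1 52.5 CPM against 80.6 CPM in WT (-0.62, -1.0 to -0.24), which passed the fold upwards and downwards. Both lay inside it, at 0.08 and -0.20, when P2ry12 was not used for exclusion. Klra4 had 463 CPM in Stat4fl/flCD11cCre members and 567 CPM in WT members, Klra7 531 CPM against 433 CPM in WT and Klra9 253 CPM against 194 CPM in WT. After thinning, 126 of 255 Stat4fl/flCD11cCre members (49.4%) and 169 of 316 WT members (53.5%) held 2 or more of the 9 genes, and 20.8% and 19.0% held none. Klra4 and Klra8 were found together in 42 thinned Stat4fl/flCD11cCre members, where the product of their shares gives 23.5, and in 72 thinned WT members, where it gives 45.9. Klra7 was found with Klrc1 (NKG2A) in 28 thinned Stat4fl/flCD11cCre members, where the product gives 40.4, and in 34 thinned WT members, where it gives 41.7. Ly49 genes are near-identical copies whose reads the counting could split, and Klra8 was used for the gate, so values of single Ly49 genes are uncertain.

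Cycling genes tended to be higher in NK cells of the Stat4fl/flCD11cCre library. Of 26 compared, 7 were past the fold upwards and none downwards, 21 lay above 0, beside 4109 of 7161 over all genes, and the median log2 ratio was 0.31. Mki67, a proliferation marker, had 144 CPM in Stat4fl/flCD11cCre members and 87.9 CPM in WT members (0.71, 0.43 to 1.0), Tyms, an enzyme of thymidylate synthesis, 55.8 CPM against 27.9 CPM in WT (1.00, 0.51 to 1.5) and the mitotic kinase Cdk1 66.2 CPM against 35.1 CPM in WT (0.91, 0.47 to 1.36). When members with further T cell genes were left out, Cdk1 was at 0.44. The 3 genes were found in 33, 33 and 29 Stat4fl/flCD11cCre members and in 32, 25 and 19 WT members. Stmn1, abundant in dividing cells, had 409 CPM in Stat4fl/flCD11cCre members and 273 CPM in WT members, and the replication clamp Pcna 179 CPM against 120 CPM in WT. The log2 ratio of Stmn1 was -0.04 when members with further T cell genes were left out. The histone gene Hist1h2ap, outside the list, went the other way, with 190 CPM in Stat4fl/flCD11cCre members and 341 CPM in WT members. Its log2 ratio was -0.84 (-1.03 to -0.65), and -0.35 when the gate was applied to thinned cells.

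For the share of cycling cells itself, the counting interval of the ratio was wide and held an equal share. After thinning, 32 of 255 Stat4fl/flCD11cCre members (12.5%, 8.74 to 17.3) and 34 of 316 WT members (10.8%, 7.57 to 14.7) held 3 or more of the cycling genes, a ratio of 1.17 (0.697 to 1.95). With all UMIs these were 23.2% in the Stat4fl/flCD11cCre library and 17.5% in the WT library, a ratio of 1.33. Members with 5 or more cycling genes after thinning were 9.80% in the Stat4fl/flCD11cCre library and 6.33% in the WT library, a ratio of 1.55 (0.826 to 2.94). By 3 or more genes, thinned CD8 T cells had 23.5% in the Stat4fl/flCD11cCre library and 19.0% in the WT library. CD4 T cells had 16.4% in each, and microglia 4.63% against 9.65% in WT.

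Some receptor and stage genes were lower in cycling members, and few NK genes were higher. Of 7294 genes compared, 743 (10.2%) were 1.5-fold or more higher in cycling than in other members in both libraries and 826 (11.3%) lower in both. Among 21 lectin-like receptors 7 were lower in both and none was higher. Klra9 was lower, with log2 ratios of -1.55 in the Stat4fl/flCD11cCre library and -1.49 in the WT library. Klrb1c, with -1.12 and -0.73, was used for the gate, so its value is a description. Of 10 late-stage genes 4 were lower in both, of 12 resident genes 4 and of 11 early-stage genes 3, and none of these lists had a gene that was higher in both. In the Stat4fl/flCD11cCre and WT libraries Fcgr3 (CD16), the antibody receptor, had -1.95 and -1.44, Itgam -1.16 and -0.87, Ccl5 -1.65 and -1.32 and Itga1 -1.91 and -1.39. Gzmc was the only cytotoxic gene that was higher in both, by 1.27 in the Stat4fl/flCD11cCre library and 2.58 in the WT library. Shares of a total fall when cycling genes take more of it, so these values are relative to all RNA of the cell.

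Genes of the type I interferon response tended to be lower, and those of the interferon-gamma response were mixed. Of 18 genes of the interferon-gamma response, none was past the fold upwards and 3 downwards, with a median log2 ratio of -0.02, which was -0.57 when P2ry12 was not used for exclusion. Of 20 genes of the type I interferon response none was past it upwards and 2 downwards, with a median of -0.25 and 1 gene, Bst2, above 0. When the 3 members with the most UMIs of each gene were left out of each library, that median was -0.55 and Bst2 was at -0.13. Cxcl10 and Cxcl9, chemokines that myeloid cells make in response to interferon-gamma, had 21.3 CPM and 14.2 CPM in Stat4fl/flCD11cCre members, where 13 and 5 members held them. In WT members they had 134 CPM and 71.3 CPM, and 30 and 14 members held them. The lower genes of the type I list were the DNA sensor family genes Ifi206, with 73 UMIs in Stat4fl/flCD11cCre members and 123 UMIs in WT members, and Ifi208, with 22 UMIs against 46 UMIs in WT.

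Among cytokines, Tnf was lower, with 15 UMIs in 12 Stat4fl/flCD11cCre members and 51 UMIs in 30 WT members, a log2 ratio of -1.68 (-2.62 to -0.83). It was -0.51, inside the fold, without members that held 3 or more myeloid markers. Ccl3, a chemokine that activated NK cells secrete, had 116 CPM in Stat4fl/flCD11cCre members and 80.6 CPM in WT members, and the related Ccl4 602 CPM against 474 CPM in WT.

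Transcription factors of NK cells were close. None of 17 compared passed the fold, where 4.2% of all genes passed it upwards and 3.31% downwards, so the absence is near that share. Their median log2 ratio was 0.08. Eomes, a gate gene that separates NK cells from most ILC1, had 145 CPM in Stat4fl/flCD11cCre members and 129 CPM in WT members and Id2, needed by all innate lymphoid cells, 714 CPM against 629 CPM in WT. Runx3, which acts in cytotoxic lymphocytes, was at 277 CPM in Stat4fl/flCD11cCre members and 354 CPM in WT members (-0.35, -0.52 to -0.19), and Ikzf2 (Helios) was the lowest, at 60.7 CPM against 82.2 CPM in WT (-0.44, -0.80 to -0.08).

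Of 18 trafficking genes, 2 were past the fold upwards and none downwards, with a median log2 ratio of 0.16. S1pr4, a further sphingosine-1-phosphate receptor, had 63.4 CPM in Stat4fl/flCD11cCre members and 38.8 CPM in WT members (0.71, 0.28 to 1.15) and was at 0.43 without members that held 3 or more myeloid markers; S1pr5, given above, was the other. Cxcr4, which retains cells in marrow, had 113 CPM in Stat4fl/flCD11cCre members and 83.2 CPM in WT members (0.44, 0.14 to 0.75) and the integrin Itgb7 193 CPM against 143 CPM in WT (0.43, 0.20 to 0.66). Among receptors for inflammatory chemokines, Ccr2 had 289 CPM in Stat4fl/flCD11cCre members and 273 CPM in WT members, and Cxcr3 36.6 CPM against 38.2 CPM in WT.

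Activating receptors and their adaptors were close as well. None of 18 passed the fold, near the 4.2% upwards and 3.31% downwards of all genes, and the median log2 ratio was 0.13. Zap70, a kinase that acts on receptor adaptors, had the largest ratio, with 72.7 CPM in Stat4fl/flCD11cCre members and 50.1 CPM in WT members (0.54, 0.15 to 0.93), followed by Cd244a (2B4), with 166 CPM against 117 CPM in WT (0.51, 0.26 to 0.76). Sh2d1b1 (EAT-2), an adaptor of SLAM family receptors, had the lowest, with 45.4 CPM in Stat4fl/flCD11cCre members and 59.4 CPM in WT members (-0.39, -0.81 to 0.03). Of 6 checkpoint genes none passed the fold, and Pdcd1 (PD-1), with 16 UMIs in Stat4fl/flCD11cCre members and 17 UMIs in WT members, and Lag3, with 28 UMIs against 21 UMIs in WT, were too sparse to compare.

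Of 10 heat shock genes, none was past the fold upwards and 2, Hspa1a and Hspa1b, downwards, with a median log2 ratio of -0.05. Hspa1a had 58.0 CPM in Stat4fl/flCD11cCre members and 94.1 CPM in WT members (-0.70, -1.06 to -0.34) and was found in 28 and 62 of them, next to Hspa1b in 41 and 93. Hspa8 had 1202 CPM in Stat4fl/flCD11cCre members and 1275 CPM in WT members and Hsp90ab1 1275 CPM against 1293 CPM in WT. Hspa1a and Hspa1b are near-identical copies whose reads the counting could split, so each value is uncertain. Hspa1b was also lower in CD8 T cells, CD4 T cells and microglia of the Stat4fl/flCD11cCre library, with log2 ratios of -0.81, -0.81 and -1.02. Of 16 immediate early genes, which respond to stimulation and to tissue handling, none was past the fold upwards and 1, Atf3, downwards, and the median log2 ratio was 0.06. Fos had 212 CPM in Stat4fl/flCD11cCre members and 158 CPM in WT members (0.42, 0.20 to 0.64) and Jun 145 CPM against 203 CPM in WT (-0.49, -0.72 to -0.26).

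RNA of the proteins used for the sort was sparse in members. Itgax was found in 80 of 271 Stat4fl/flCD11cCre members and 84 of 360 WT members. The MHC class II gene H2-Aa was found in 26 Stat4fl/flCD11cCre members, at 407 CPM, and in 69 WT members, at 260 CPM. Cd74, the invariant chain, was found in 47 Stat4fl/flCD11cCre members, at 1073 CPM, and in 103 WT members, at 630 CPM. The log2 ratios of H2-Aa and Cd74 were 0.65 and 0.77. They turned to -2.59 and -1.43 without members that held 3 or more myeloid markers, which left 179 Stat4fl/flCD11cCre and 234 WT members. The direction therefore depended on the members left out.

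NK cells took 2.20% (1.95 to 2.48) of kept barcodes in the Stat4fl/flCD11cCre library and 2.71% (2.44 to 3.0) in the WT library, a ratio of 0.814 (0.692 to 0.955). The microglia gate held 6070 Stat4fl/flCD11cCre and 4443 WT barcodes, and outside it NK cells took 4.35% in the Stat4fl/flCD11cCre library and 4.07% in the WT library, a ratio of 1.07 (0.910 to 1.26). CD8 T cells, at 217 Stat4fl/flCD11cCre and 641 WT barcodes, were less frequent in the Stat4fl/flCD11cCre library by either total, with ratios of 0.366 and 0.481. There were 1.25 NK cells per CD8 T cell in the Stat4fl/flCD11cCre library and 0.562 in the WT library. Shares after a sort on MHCII and CD11c follow the gate as well as the tissue, and with 1 pool a genotype these cannot be told apart.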

How the data were processed

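Each library came as 1 matrix of UMI counts, which the authors deposited with 32285 genes and 5 antibody tags. Per the file headers it was written by Cell Ranger 7.0.0; bcl2fastq, STAR, Seurat, R 4.3.0 and the build mm10 are listed in the submitters' processing notes. The sources used here do not state how intron reads and strand were handled. The deposited counts were used as they stand, with no normalization by the authors.

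Barcodes with 500 or more genes, 1000 or more gene UMIs and under 10% mitochondrial UMIs were kept, and the gate was applied to them. UMIs were summed over members and divided by their gene total (CPM). With 1 library per genotype no test was made. Ratios have exact conditional binomial intervals, levels exact Poisson intervals and shares exact Clopper-Pearson intervals, all at 95% and for counting error only. "Past the fold" means 1.5-fold or more, among genes with 50 or more UMIs in the members. Within-library splits needed 20 or more UMIs in each library. The code was tested on simulated data with known ratios. Python 3.11.15, numpy 2.4.6, scipy 1.17.1, pandas 2.3.3 and scanpy 1.11.5 (for Scrublet) were used. No doublets were removed; leaving out the 10% of barcodes with the highest Scrublet scores was an alternative. Myeloid markers were the listed macrophage, microglia, cDC and neutrophil genes.

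Genes were named by rule: the gate genes, Stat4, Il12rb1, Il12rb2, Tbx21, Ifng, Itgax, Cd27, Itgam and Klrg1; the 8 highest and 8 lowest ratios, ranked by whichever end of the interval lay closer to 1, of genes that had at least 100 UMIs in all and reached at least 50 CPM in 1 library; up to 6 genes a list by level and 3 by ratio; and list genes past the fold between stage classes in both libraries. A rule added after seeing the data named up to 8 genes each way that were found in 10% or more of members with no more than 15% of their UMIs in 1 member. Other genes given, Pycard, Itgal, Siglech and some list members, were chosen after their values were seen. Some genes that these rules chose are not reported here. The members and gene lists were chosen with earlier results of these data known. Alternatives changed the gate, the filters, the weighting of cells and the thinning. RefSeq windows were read from the table for GRCm38.p6, and 2 of 4 genes looked up had an entry.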

Additional observations from a re-analysis of the deposited data

Results flagged for a closer look

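Flagged here are 5 genes whose ratios in gated NK cells and in CD8 T cells of the same libraries pointed in opposite directions. They are not all such genes: Itgam was at 0.73 in NK cells and -0.42 in CD8 T cells. No difference between the gates was tested, since each genotype had 1 library. How the UMIs of the 5 genes were spread over CD8 T cells is not given here. For Camp the log2 ratio, Stat4fl/flCD11cCre over WT, was -6.62 in NK cells and 8.88 in CD8 T cells, a difference of -15.5. For Ngp it was -6.31 and 7.39, a difference of -13.7. For S100a8 it was -2.08 and 3.0, a difference of -5.08, and for S100a9 -2.01 and 3.20, a difference of -5.20. In NK cells 1 WT member held most UMIs of these 4 neutrophil genes, 722 of 731 for Camp. For Ccl1 the log2 ratio was -5.34 in NK cells and 2.54 in CD8 T cells, a difference of -7.88, with 170 of 172 UMIs of the WT members in 1 cell.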

How the results depend on the processing

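No paired analysis was possible because each genotype had 1 library, and for the same reason no replicate could be left out. Of the summary values under the alternatives, 121 stayed and 9 moved; a ratio or median moved when it left its counting interval, and a number of genes when it changed by more than 1.5 times. The share ratio of NK cells was 1.07 outside the microglia gate, against 0.814. The number of genes past the fold upwards was 668 with a filter of 20 UMIs and 24 with one of 200 UMIs, against 301, since the filter sets how many genes are compared. Downwards it was 603 and 36 under these filters, 391 with cells weighted equally and 395 without the top 3 cells of each gene, against 237. Stat4 was at -0.37 without members holding 3 or more myeloid markers, against -0.15, and the median of the interferon-gamma list at -0.57 when P2ry12 was not used, against -0.02. The cause of these 2 shifts was not tested. Medians ranged from 0.25 to 0.51 for late-stage genes, from -0.16 to -0.01 for early-stage genes and from -0.25 to 0.34 for resident genes. The ratio of cycling shares ranged from 0.907 to 1.55 and that of the CD11b tag from 0.800 to 1.05.

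Of the values of single genes, 854 stayed, 149 moved and 24 turned round. Without members holding 3 or more myeloid markers, Ifitm1 was at -0.84, Ngp at 1.03, H2-Aa at -2.59 and Cd74 at -1.43. With the gate on thinned cells, Cst3 was at -0.14, Ngp at 1.10, S100a8 at 3.35, S100a9 at 3.13, H2-Aa at -0.69, Cd74 at -0.62 and Il2ra at 0.45. Without cycling members, Camp was at 0.52, Ngp at 0.78, S100a8 at 0.43, S100a9 at 0.55, Tyms at -0.27 and Mki67 at -0.19; these members were chosen by cycling genes, so the last 2 values follow from the choice, and they included the one that held most of the neutrophil RNA. Without the top cell Ngp was at 0.34, and without the top 3 cells Camp was at 0.082 and Ngp at 0.50. With P2ry12 not used, S100a9 was at 0.033, H2-Aa at -0.12 and Cd74 at -0.22, and with cells weighted equally H2-Aa was at -0.15. Ltf had no UMI in Stat4fl/flCD11cCre members and so gave no ratio to compare. For genes with few UMIs depth limits the ratio, and for genes found in few members the ratio describes those members.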
